A study of Mus musculus with 12 samples.

Results

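The genes described here are 10 members of the unfolded protein response (UPR) and the integrated stress response (ISR), chosen by gene name: Hspa5, Pdia4, Sdf2l1, Dnajb9, Herpud1 and Xbp1 for the endoplasmic reticulum (ER), and Atf4, Ddit3, Trib3 and Asns for the ISR. They take up 11 of the 55416 rows of each expression table, because the name Ddit3 stands on 2 rows. RNA-seq was performed on the liver and on the intestine, which is the duodenum according to the methods, of male C57BL6/J mice. The mice received either corticosterone (CORT), the principal glucocorticoid in rodents, at 40 mg/kg or vehicle (Veh), which was DMSO and Tween-80 in water. Both were injected under the skin once a day for 8 weeks, starting at an age of 8 weeks. Each tissue had 3 CORT and 3 Veh libraries, labelled as biological replicates, and no source ties the liver and the duodenum of a given number to one mouse. P-values therefore measure the spread between these libraries.

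Proteins that are secreted or sit in membranes fold in the ER, and cells that make much of them, such as hepatocytes, plasma cells and pancreatic acinar cells, rely on the UPR. When unfolded proteins accumulate, the sensors IRE1 (gene Ern1), ATF6 and PERK (gene Eif2ak3) raise chaperones and the degradation machinery and slow protein synthesis. PERK is also one of the kinases of the ISR, in which phosphorylation of eIF2 favours translation of the transcription factor ATF4, so that the ATF4 program can rise with little change in Atf4 mRNA. ATF4 raises genes of amino acid supply and tRNA charging, and CHOP (gene Ddit3) and TRIB3 when stress persists. Xbp1 mRNA is spliced by IRE1, and a gene-level table does not separate the spliced from the unspliced form.

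The UPR and the ISR act through known promoter elements, and the promoters of Hspa5, Herpud1 and Asns are shown because they hold matches to them. The sequences are RefSeq's (GRCm38.p6), run from 250 bases before to 50 bases after the transcription start on the strand of the gene, and were found for 10 of the 10 genes. Capitals mark the ER stress response element (ERSE, CCAAT and CCACG with any 9 bases between them) in Hspa5, the ERSE-II (ATTGG and CCACG with any 1 base between them) and the C/EBP-ATF response element (CARE, TGATGNAA, here on the opposite strand) in Herpud1, and the CARE in Asns.
Hspa5 (chr2:34771840-34772139, + strand): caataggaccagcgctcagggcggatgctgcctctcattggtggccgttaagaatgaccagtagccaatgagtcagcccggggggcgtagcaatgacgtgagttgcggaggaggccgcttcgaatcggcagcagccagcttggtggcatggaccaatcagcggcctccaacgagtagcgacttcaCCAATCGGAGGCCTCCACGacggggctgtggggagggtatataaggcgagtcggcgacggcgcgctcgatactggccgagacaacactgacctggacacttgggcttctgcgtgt
Herpud1 (chr8:94386179-94386478, + strand): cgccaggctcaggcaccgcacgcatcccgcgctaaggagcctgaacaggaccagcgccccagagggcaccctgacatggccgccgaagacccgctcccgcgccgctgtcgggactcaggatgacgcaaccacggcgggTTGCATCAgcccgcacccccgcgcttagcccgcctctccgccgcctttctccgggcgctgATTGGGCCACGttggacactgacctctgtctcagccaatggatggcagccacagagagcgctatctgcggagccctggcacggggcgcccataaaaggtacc
Asns (chr6:7693160-7693459, - strand): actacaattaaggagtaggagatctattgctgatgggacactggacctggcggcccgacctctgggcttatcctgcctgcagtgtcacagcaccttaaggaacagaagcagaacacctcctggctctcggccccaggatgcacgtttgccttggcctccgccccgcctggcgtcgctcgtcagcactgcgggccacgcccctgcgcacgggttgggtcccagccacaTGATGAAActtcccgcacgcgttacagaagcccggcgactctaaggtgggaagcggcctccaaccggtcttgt
Both strands were searched. The ERSE stood at bases -65 to -47 of Hspa5, counted from the start site, and in 0.119% of all 32851 promoters. The ERSE-II stood at -52 to -42 of Herpud1 and in 0.0365% of promoters. The CARE stood at -112 to -105 of Herpud1, at 14 to 21 of Trib3 and at -23 to -16 of Asns, and in 3.97% of promoters. The letters CCACG, which are the end of both ERSE forms, occurred in 7 of the 10 promoters and in 32.8% of all, whereas TGACGTGG (the UPR element) and GNACA and TGTNC with any 3 bases between them (the glucocorticoid response element) occurred in 0 of the 10 and in 0.676% and 0.475% of all. These are matches of letters, and no binding was measured.

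The tables hold TPM, a transcript level corrected for length and scaled within a library, which keeps no record of sequencing depth and so allows no estimate of counting error. Groups were compared with limma on log2(TPM + 1), which understates the fold change of low genes, and a gene was called when its Benjamini-Hochberg adjusted p was 0.05 or less and its fold change over 1.5. In bulk tissue, fewer cells of a type and less RNA per cell cannot be told apart. Fkbp5, a direct target of the glucocorticoid receptor that served as a control of the treatment, rose by 4.30 ± 0.34 (log2, SE, adjusted p = 0.00450) in the duodenum and by 4.23 ± 0.32 (adjusted p = 0.00178) in the liver. Enterocyte markers (8 genes) summed to 18080 to 30230 TPM in the duodenum, and hepatocyte markers (8 genes) to 59530 to 90890 TPM in the liver. Some duodenum libraries held RNA of another organ. The 28 pancreatic acinar markers summed to 39070 TPM in Veh2 and 30920 TPM in Veh3, against 245 TPM in Veh1 and 252 to 456 TPM in the CORT libraries. On the second principal component of the duodenum, CORT2 lay at -33.3 and Veh1 at 41.1, with the others at -15.5 to 7.01. Mitochondrial transcripts summed to 97500 TPM in CORT2 and to 64960 to 80900 TPM in the other duodenum libraries. The part of this in the levels of the members was not tested. In the liver, Veh2 and CORT3 stood apart on the second principal component at -38.8 and -22.3, with the other 4 libraries at 9.27 to 20.4, while the acinar sum was at most 2.23 TPM with 21 of 28 markers listed at 0.

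In the duodenum, 0 of the 10 member rows that could be tested with limma were called, against 2.15% of the 13607 genes tested (1.23% higher and 0.919% lower in CORT). The transcription factor Xbp1 and the ER cochaperone Sdf2l1 were lower in all CORT libraries than in all Veh libraries, and Ddit3 was higher in all of them, with differences that did not pass the adjustment. The short Ddit3 model was listed at 0 in all 6 libraries and was not tested. Groups that did not overlap thus occurred in 3 of 10 rows and in 26.4% of all genes tested, and an unadjusted p under 0.05 in 2 rows (Xbp1 and Sdf2l1) and in 19.2% of genes.

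Hspa5 encodes BiP, the main chaperone of the ER lumen and the protein that holds the sensors inactive. In the duodenum it measured 129, 219 and 124 TPM in CORT1, CORT2 and CORT3 and 219, 190 and 168 TPM in Veh1, Veh2 and Veh3. CORT2 lay as high as the highest Veh library while the other CORT libraries lay below all Veh libraries, so the groups overlapped (log2 fold change -0.33 ± 0.24 SE, adjusted p = 0.498, 95% interval -0.89 to 0.24). Pdia4, a disulfide isomerase, followed the same order of CORT libraries at 45.0, 55.7 and 36.5 TPM, with 56.6, 50.3 and 46.1 TPM in Veh (log2 fold change -0.17, adjusted p = 0.629). Sdf2l1, which works with BiP and its J-domain partners, measured 29.9, 33.4 and 21.1 TPM in CORT and 43.0, 40.4 and 34.1 TPM in Veh. All its CORT libraries lay below all Veh libraries, the nearest pair being CORT2 and Veh3 (log2 fold change -0.48 ± 0.19, adjusted p = 0.237).

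Dnajb9 (ERdj4), a J-domain cochaperone of BiP and a target of XBP1, measured 18.2, 35.3 and 21.5 TPM in the CORT duodenum and 17.8, 23.9 and 19.2 TPM in Veh. Only CORT2 lay above the Veh range (log2 fold change 0.24, adjusted p = 0.626). Herpud1, a membrane protein of ER-associated degradation (ERAD), measured 201, 153 and 141 TPM in CORT and 107, 93.8 and 161 TPM in Veh. Veh3 lay above CORT2 and CORT3, so the groups overlapped (log2 fold change 0.47 ± 0.23, adjusted p = 0.329).

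Xbp1 had the smallest unadjusted p of the members in the duodenum. Its level was 104, 122 and 94.6 TPM in CORT and 160, 155 and 140 TPM in Veh. The groups did not overlap, and the mean was 107 ± 13.9 TPM (SD, n = 3) against 152 ± 10.4 TPM (log2 fold change -0.51 ± 0.14, 95% interval -0.84 to -0.18, adjusted p = 0.118). Without acinar genes the difference was -0.54 (adjusted p = 0.0874), and without Veh2 and Veh3, which leaves 1 Veh library whose spread is assumed to be that of the others, it was -0.59 (adjusted p = 0.483). XBP1 is also the factor that plasma cells need for antibody secretion, and markers of those cells moved with the groups. The 11 plasma cell markers summed to 7987, 8987 and 5695 TPM in CORT and 17160, 20820 and 20400 TPM in Veh. 4 of the 11 were called, all lower (Sdc1, Tnfrsf17, Igkc and Igha), beside 0.919% of all genes tested called lower. 8 of 11 had all CORT libraries below all Veh libraries, beside 14.3% of all genes tested. Ighm went the other way, with overlapping groups (log2 fold change 0.47, adjusted p = 0.694). The 4 markers that are neither antibody genes (immunoglobulins and J chain) nor in the pathway lists summed to 39.3 to 48.5 TPM in CORT and 76.4 to 101 TPM in Veh. The part of these cells in the level of Xbp1 was not tested.

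**Figure D1:**
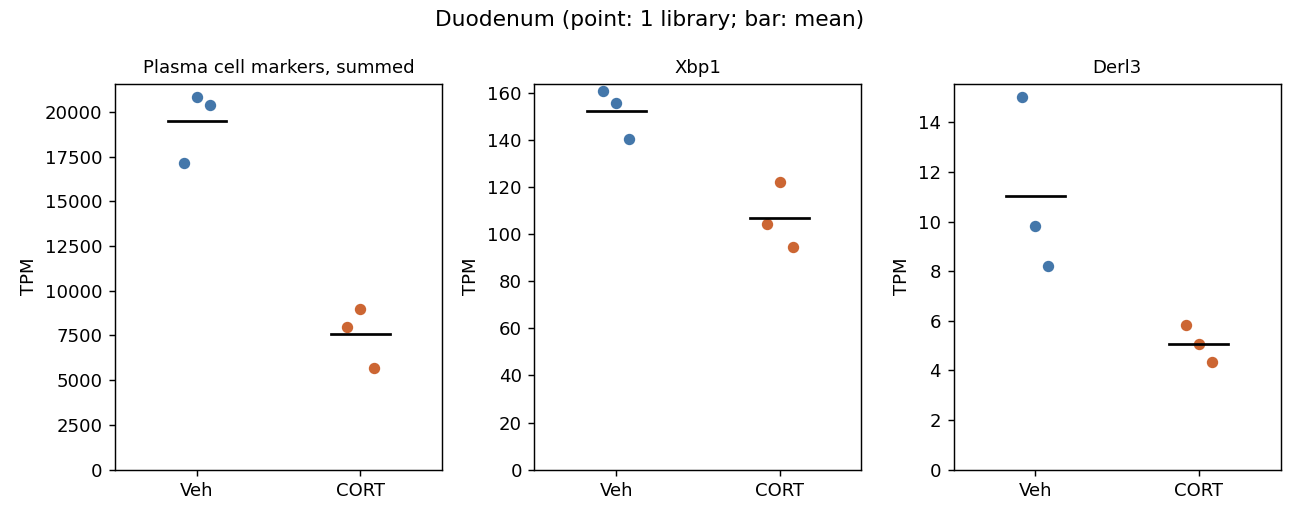
Summed level of the 11 plasma cell markers and the levels of Xbp1 and of Derl3, a degradation factor that is also one of those markers, in the duodenum, in TPM on axes that start at 0 (points: libraries; bars: means of 3). In each panel all 3 CORT libraries lie below all 3 Veh libraries, for Xbp1 at 94.6 to 122 TPM against 140 to 160 TPM.

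Of the ISR members in the duodenum, Atf4 measured 90.0, 102 and 103 TPM in CORT and 96.1, 86.0 and 80.7 TPM in Veh, with CORT1 inside the Veh range (log2 fold change 0.16, adjusted p = 0.514). The row of full-length Ddit3, the proapoptotic factor CHOP, measured 20.7, 33.0 and 20.3 TPM in CORT and 19.1, 17.6 and 12.3 TPM in Veh. All CORT libraries lay above all Veh libraries, CORT1 and CORT3 only just (log2 fold change 0.55 ± 0.24, adjusted p = 0.271). It shares 68 exonic bases with the opposite-strand gene Mars. Trib3, a pseudokinase that dampens ATF4 and AKT signalling, measured 7.47, 5.60 and 9.21 TPM against 9.57, 8.01 and 6.76 TPM, and Asns, which makes asparagine, 19.1, 14.5 and 26.8 TPM against 13.6, 19.5 and 19.2 TPM. For both the groups overlapped (log2 fold changes -0.12 and 0.17, adjusted p = 0.765 and 0.724).

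In the liver, 2 of the 11 member rows were called, both higher in CORT, against 6.92% of the 11699 genes tested in either direction, 4.91% higher and 2.01% lower. They were Herpud1 (ENSMUSG00000031770) and the short Ddit3 model (ENSMUSG00000116429). The groups did not overlap in 4 of 11 rows, against 32.2% of all genes tested. Herpud1, the short Ddit3 model and Hspa5 were higher, and Xbp1 was lower. The level of the short model cannot be told apart from a share of the reads of full-length Ddit3. Without that row, 1 of 10 member rows was called, and the groups did not overlap in 3 of 10.

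Herpud1 lies on chromosome 8 from 94386438 to 94395377 on the plus strand (GENCODE vM21, GRCm38). In the liver it measured 666, 466 and 615 TPM in CORT and 191, 267 and 357 TPM in Veh. The lowest CORT library lay above the highest Veh library, and Herpud1 had the highest mean of the members in both liver groups, at 583 ± 104 TPM (SD, n = 3) in CORT and 271 ± 83.4 TPM in Veh, with Veh Herpud1 and Veh Hspa5 overlapping. It rose by 1.13 ± 0.25 on the log2 scale (95% interval 0.53 to 1.73, adjusted p = 0.0450). The call was close to the threshold. The change stayed between 0.90 and 1.35 without any 1 library, but the adjusted p was 0.140, 0.0636 and 0.101 without CORT1, CORT2 and CORT3, 0.0981 and 0.0842 without Veh1 and Veh2, and 0.0479 without Veh3. It was 0.0571 after median-ratio scaling of the libraries and 0.145 without Veh2 and CORT3 together.

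The other ER members of the liver were not called. Hspa5 measured 211, 253 and 233 TPM in CORT and 203, 206 and 134 TPM in Veh. CORT1 and Veh2 were only just apart, and Veh3 was low (log2 fold change 0.38 ± 0.19, 95% interval -0.08 to 0.84, adjusted p = 0.267). Xbp1, by contrast, measured 84.4, 111 and 77.7 TPM in CORT and 144, 209 and 119 TPM in Veh. All CORT libraries lay below all Veh libraries (log2 fold change -0.76 ± 0.24, adjusted p = 0.1001), and after median-ratio scaling Xbp1 passed both thresholds (-0.86, adjusted p = 0.0352) while Herpud1 did not. In the liver the plasma cell markers summed to 183 to 196 TPM in CORT and 173 to 307 TPM in Veh, of which Sdc1, which hepatocytes express too, made up 64.8 to 131 TPM. Of the 8 markers that could be tested, 4 had all CORT libraries below all Veh libraries, beside 11.6% of all genes tested. 1 (Fkbp11) was called, lower, beside 2.01% of genes called lower, and it is also one of the folding factors described below. Derl3 and Sdc1 went the other way, with overlapping groups (log2 fold changes 1.24 and 0.30, adjusted p = 0.232 and 0.528, limma). The part of plasma cells in the level of Xbp1 in the liver was not tested.

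Dnajb9 measured 27.9, 40.04 and 21.8 TPM in the CORT liver and 20.7, 23.2 and 21.1 TPM in Veh, with CORT3 inside the Veh range (log2 fold change 0.41, adjusted p = 0.281). Sdf2l1 measured 21.5, 24.9 and 27.5 TPM in CORT and 47.9, 27.5 and 15.9 TPM in Veh. The Veh libraries spanned the whole CORT range and more (log2 fold change -0.17, adjusted p = 0.802). Pdia4 had nearly equal means, 68.4 ± 10.95 TPM in CORT and 69.6 ± 17.4 TPM in Veh, from 58.6, 80.2 and 66.4 TPM and 83.9, 74.7 and 50.2 TPM (95% interval of the log2 fold change -0.52 to 0.51). The 6 ER members together summed to 1069, 975 and 1041 TPM in CORT and 691, 807 and 698 TPM in Veh. Herpud1 was the largest term in each sum but that of Veh1, where Hspa5 was at 203 TPM and Herpud1 at 191 TPM.

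**Figure D2:**
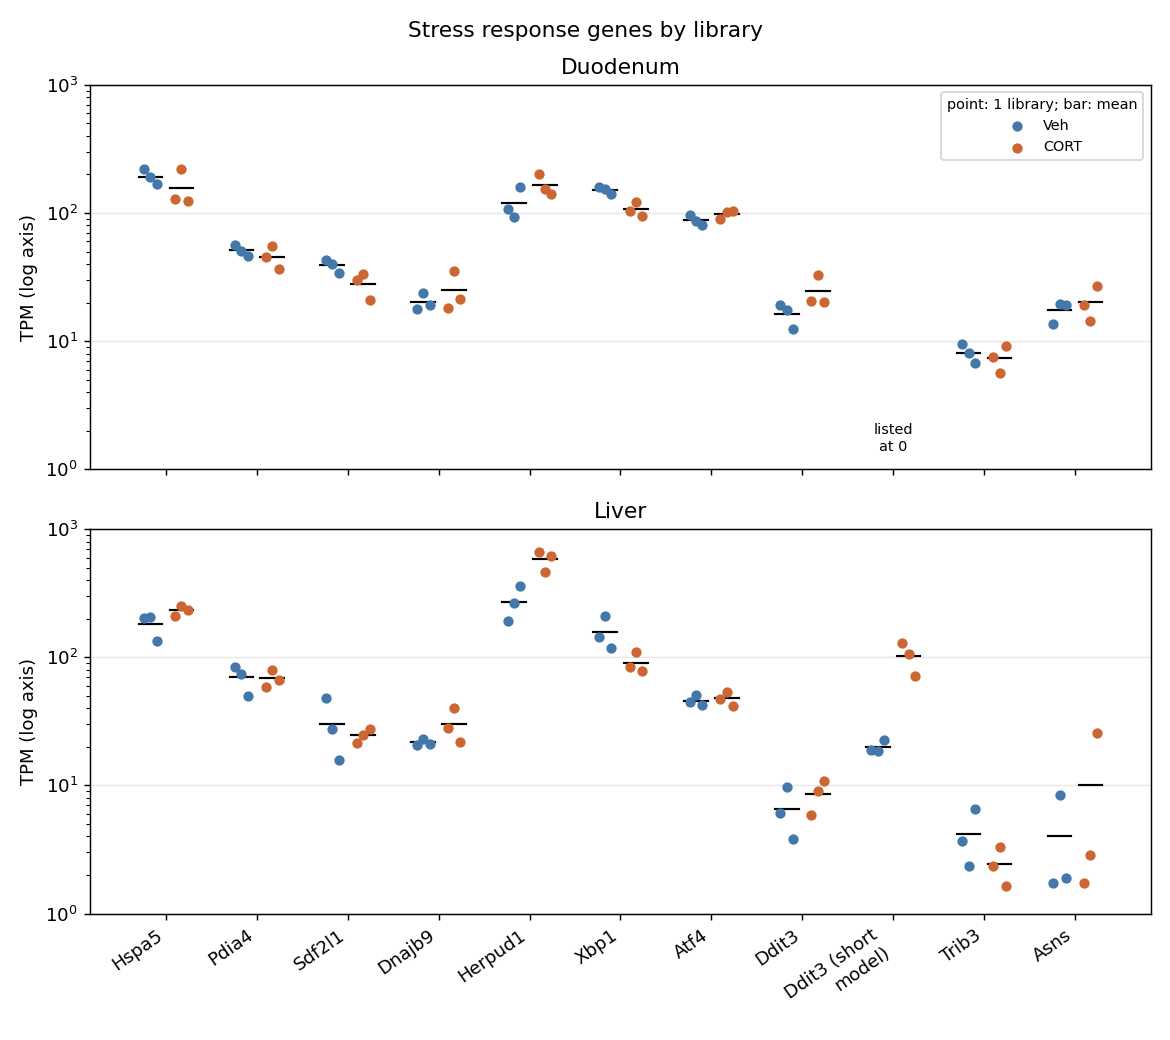
Level of each member in each library, in TPM on a log axis, in the duodenum (top) and the liver (bottom). Points are libraries and bars are means of 3 CORT or 3 Veh libraries. Herpud1 and the short Ddit3 model of the liver show the CORT libraries clear of the Veh libraries, Xbp1 shows them below in both tissues, and Asns of the liver spreads from 1.73 to 25.6 TPM within CORT.

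The 2 rows named Ddit3 gave different results in the liver. The full gene (ENSMUSG00000025408, chromosome 10, 127290774 to 127296288, plus strand, GENCODE vM21 on GRCm38) measured 5.92, 9.07 and 10.9 TPM in CORT and 6.08, 9.67 and 3.80 TPM in Veh. These groups overlapped throughout (log2 fold change 0.40 ± 0.32, adjusted p = 0.475). The short model measured 130, 106 and 71.0 TPM in CORT and 19.0, 18.6 and 22.5 TPM in Veh. Every CORT library was above every Veh library, and the row rose by 2.26 ± 0.23 on the log2 scale (95% interval 1.72 to 2.80, adjusted p = 0.00467), a call that held without any 1 of the 6 libraries.

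The short model is 105 bases long, in 2 exons of 63 and 42 bases on the same strand from 127290829 to 127293753, and 100% of its bases lie inside exons of full-length Ddit3. The sequenced reads were longer before trimming than this whole model, so an untrimmed read cannot lie within it. Only reads trimmed to fit inside these bases could be given to either row. The split between the rows was made by the authors' quantification. A level per length of so short a model rests on few positions. Of the 63 coding models of at most 150 bases in the tables, 0 were above 0 in any duodenum library and 1 to 2 in each liver library. The level of the short Ddit3 model cannot be told apart from a share of the reads of full-length Ddit3, so the rise is given as that of the row, not as a rise of CHOP. That the call held without any 1 library does not show which transcript the reads came from.

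**Figure D3:**
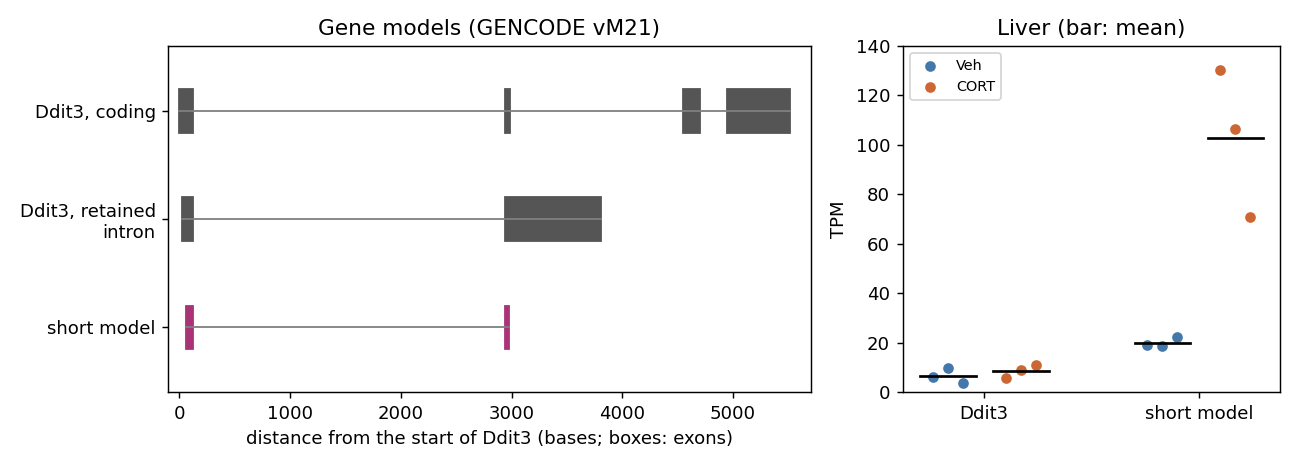
Left, exons (boxes) of 2 transcripts of full-length Ddit3 and of the short model, by distance in bases from the start of the gene. Right, TPM of both rows in the liver libraries (points; bars: means of 3), on an axis that starts at 0: the short model lies at 71.0 to 130 TPM in CORT and 18.6 to 22.5 TPM in Veh, and the full gene at 3.80 to 10.9 TPM in both.

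The other ISR members of the liver were not called. Atf4 measured 47.6, 54.1 and 41.6 TPM in CORT and 44.5, 50.7 and 42.1 TPM in Veh. The groups overlapped fully (log2 fold change 0.06, 95% interval -0.28 to 0.40, adjusted p = 0.832; -0.036 after median-ratio scaling). Trib3 measured 2.35, 3.30 and 1.63 TPM in CORT and 3.66, 2.33 and 6.49 TPM in Veh (log2 fold change -0.54, adjusted p = 0.344). Asns was low in 4 of 6 libraries, at 1.73 to 2.88 TPM, and stood at 25.6 TPM in CORT3 and 8.36 TPM in Veh2, the libraries that stood apart on the second principal component. Its difference was 0.64 ± 0.89 on the log2 scale (adjusted p = 0.683), and without CORT3 it was -0.37.

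**Figure D4:**
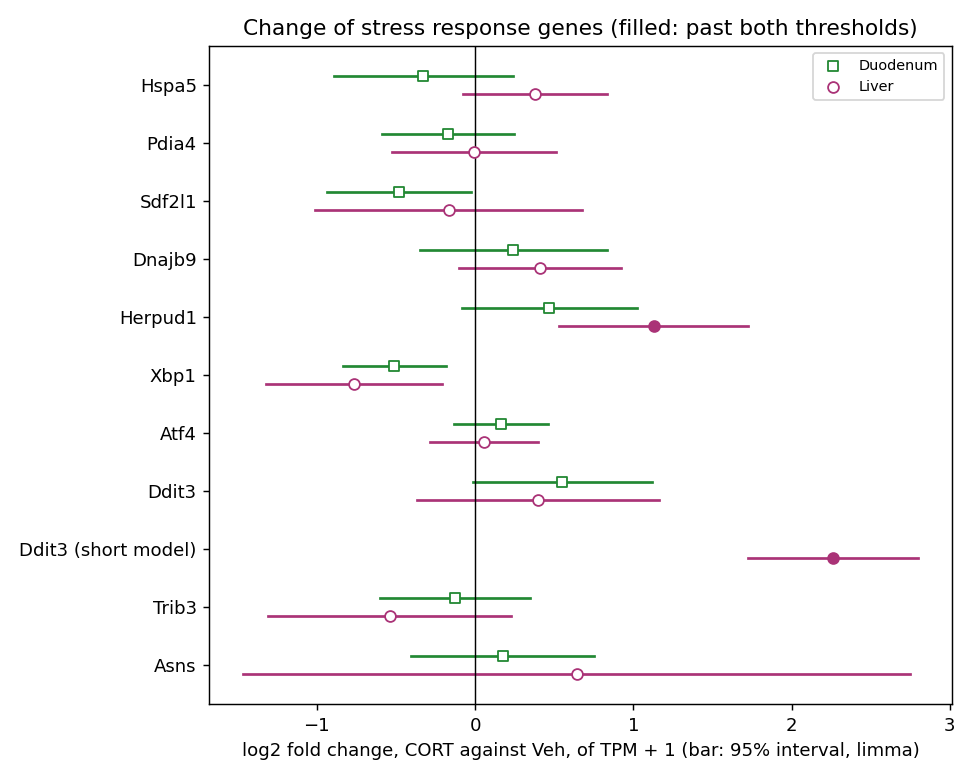
Log2 fold change of TPM + 1, CORT against Veh, of each member in the duodenum (squares) and the liver (circles), with 95% intervals from limma (3 libraries a group). Filled symbols passed both thresholds, which were Herpud1 at 1.13 and the short Ddit3 model at 2.26 in the liver. The interval of Asns in the liver is the widest drawn.

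Whether the change differed between the tissues was tested with a treatment by tissue term over all 12 libraries and 14806 genes, which passed an adjusted p of 0.05 for 3.61% of genes. The fit took the 12 libraries as independent. Liver and duodenum may come from the same mice, and such a pairing was not modelled. Of the 10 member rows that are above 0 in both tissues, 0 passed this limma test, and 0 had an unadjusted p under 0.05. The short Ddit3 model is listed at 0 in all duodenum libraries, so its value in this test (-2.26 ± 0.26) is its liver change with the sign turned and is no comparison of tissues. Hspa5 had differences of opposite sign, -0.33 in the duodenum and 0.38 in the liver, and the test of their difference gave -0.71 ± 0.32 with an adjusted p of 0.281. For Herpud1 the difference between tissues was -0.66 ± 0.37 (adjusted p = 0.377), and for Xbp1, lower in all CORT libraries of both tissues, it was 0.25 ± 0.28 (adjusted p = 0.683). The adjusted p of the other 7 rows lay between 0.638 and 0.891.

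Over the 15 pairs of ER members, the Pearson r of the log levels across 6 libraries had a median of 0.31 in the duodenum (-0.69 to 0.94) and 0.28 in the liver (-0.84 to 0.84), and over the 6 pairs of ISR members the medians were 0.06 and -0.19. The 6 pairs among Hspa5, Pdia4, Sdf2l1 and Dnajb9 had medians of 0.62 (-0.02 to 0.93) and 0.53 (-0.18 to 0.84). Hspa5 and Pdia4 had r = 0.93 in the duodenum and 0.71 in the liver. For Herpud1 and Hspa5, r was -0.55 in the duodenum and 0.28 in the liver, and -0.34 and -0.83 for the deviations from the group means. With Pdia4, Sdf2l1 and Dnajb9, the r of Herpud1 was -0.35, -0.52 and -0.06 in the duodenum. In the liver these were -0.46, -0.57 and 0.42. The values share their libraries and the scaling within each, so these are descriptions. Among 8766 duodenum genes averaging 5 TPM or more, those most like the mean z-score of the 6 ER members were Mfsd1, Sec11c and Eif4g3 (r = 0.99, 0.98 and 0.98), and most like the 4 ISR members were Stk40, Bloc1s2 and Cpsf4 (r = 0.99, 0.98 and 0.98). Among 6926 liver genes they were Mydgf, Fam98a and Gm20498 (r = 0.99, 0.99 and 0.98) and Ltv1, Rabif and Sfr1 (r = 0.99, 0.98 and 0.98), all over 6 libraries.

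The other genes of the pathways were taken from 7 lists with 120 genes in all: ER stress sensors and their relatives, folding factors, ERAD and export, the eIF2 machinery, ISR regulators, amino acid supply, and tRNA synthetases. In the duodenum 0 of the 113 genes that could be tested with limma were called, with 30 at an unadjusted p under 0.05, of which 7 were higher and 23 lower. Of all 13607 genes tested, 2.15% were called and 19.2% had an unadjusted p under 0.05, 1186 of them higher and 1432 lower. The median log2 fold change of the listed genes was -0.12, against -0.01 over all genes tested. Values below 0 occurred in 7009 of all 13607 genes tested. The folding factors had 21 of 23 values below 0 with a median of -0.27 and 9 genes whose CORT libraries all lay below the Veh libraries, and ERAD had 17 of 23 below 0 with a median of -0.18 and 8 such genes, beside 14.3% of all genes tested with CORT below Veh. The ISR regulators had a median of 0.23 and 4 genes at an unadjusted p under 0.05, all higher. The remaining medians were 0.08 for the sensors, 0.04 for the eIF2 machinery, -0.16 for amino acid supply and -0.14 for the tRNA synthetases.

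4 genes of the duodenum lists, chosen after their values were seen, were the lowest of their lists in log2 fold change. They show the lower extreme, not the usual size. Over all lists 38 genes lay above 0 and 75 below, beside 6598 above and 7009 below among all genes tested. The highest of the lists, Ddit4, reached 1.495 (adjusted p = 0.186, limma). Manf, a secreted ER factor that is induced with BiP, measured 140, 165 and 129 TPM in CORT and 259, 225 and 205 TPM in Veh (log2 fold change -0.67 ± 0.15, adjusted p = 0.0778). Wars, the tryptophan tRNA synthetase, measured 27.2, 27.8 and 29.8 TPM in CORT and 39.6, 45.2 and 42.5 TPM in Veh (-0.57 ± 0.11, adjusted p = 0.0599). In both, all CORT libraries lay below all Veh libraries. Derl3, an ERAD factor, measured 5.85, 5.07 and 4.34 TPM against 15.0, 9.82 and 8.22 TPM (-0.95 ± 0.22, adjusted p = 0.0862), and it is, like Txndc5 and Fkbp11, also one of the plasma cell markers given above. Nupr1, a stress-induced chromatin protein, measured 9.95, 15.97 and 12.4 TPM in CORT and 8.88, 72.4 and 67.2 TPM in Veh, high in the same Veh libraries as the acinar markers.

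Of the 3 sensors and the 3 other eIF2 kinases, 0 were called by limma in either tissue, and Atf6 in the liver alone had an unadjusted p under 0.05. Ern1 measured 6.98 to 8.81 TPM in CORT and 6.82 to 8.35 TPM in Veh of the duodenum, and 9.46 to 11.1 TPM and 8.90 to 11.8 TPM in the liver (log2 fold changes 0.08 and 0.01). Eif2ak3 was above Veh in all CORT libraries of the duodenum, at 8.72 to 11.1 TPM against 7.52 to 7.89 TPM (0.29 ± 0.13, adjusted p = 0.287), and overlapped in the liver (0.04). Atf6 showed the reverse of that pattern, with overlap in the duodenum (0.06) and a CORT liver of 15.9 to 16.4 TPM above 9.17 to 14.0 TPM in Veh (0.56 ± 0.18, adjusted p = 0.104). The difference between tissues had an adjusted p of 0.648 for Eif2ak3 and 0.242 for Atf6. The other eIF2 kinases, Eif2ak1 (heme), Eif2ak2 (double-stranded RNA) and Eif2ak4 (amino acids), had log2 fold changes of -0.10, 0.25 and 0.08 in the duodenum and 0.19, -0.24 and 0.12 in the liver.

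In the liver 10 of 108 tested genes of the lists were called, 7 higher and 3 lower, with 29 at an unadjusted p under 0.05 (21 higher, 8 lower), beside 6.92% called and 25.9% under 0.05 among all genes tested. Mitochondrial transcripts summed to 61900 to 69470 TPM in the CORT liver and 75040 to 76720 TPM in Veh, apart like the groups, and their part in these changes was not tested. The median log2 fold change was 0.14 against 0.08 over all genes tested. By list the medians were 0.26 for the sensors (9 of 9 above 0), 0.12 for the folding factors, 0.14 for ERAD, 0.12 for the eIF2 machinery, 0.34 for the ISR regulators, 0.16 for amino acid supply and 0.06 for the tRNA synthetases. Of all 11699 genes tested, 6837 lay above 0. The sensors ran from 0.01 (Ern1) and 0.04 (Eif2ak3) to 0.96 (Creb3l3), so some were close to 0.

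The genes that fell in the liver included both called folding factors. Pdia5, a disulfide isomerase, measured 12.5, 17.5 and 19.6 TPM in CORT and 47.1, 53.5 and 39.2 TPM in Veh, and fell by 1.45 ± 0.20 on the log2 scale (adjusted p = 0.0102). Fkbp11, a prolyl isomerase of the ER, measured 9.78, 11.95 and 6.56 TPM and 25.5, 24.7 and 23.7 TPM, and fell by 1.33 ± 0.20 (adjusted p = 0.0148). Neither had overlapping groups. The chaperone isomerase Ppib, at 199 to 218 TPM in CORT and 276 to 342 TPM in Veh, passed the adjusted p (0.0448) but not the fold limit. The third called gene was Cars, the cysteine tRNA synthetase, which measured 11.2, 11.2 and 11.8 TPM in CORT and 15.5, 21.0 and 19.6 TPM in Veh and fell by 0.66 ± 0.14 (adjusted p = 0.0426).

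The genes that rose in the liver came from the sensors, ERAD and export, and the ISR. Creb3l3 (CREBH), a membrane-bound transcription factor of the hepatocyte ER that acts in lipid metabolism, measured 319, 300 and 229 TPM in CORT and 134, 156 and 139 TPM in Veh and rose by 0.96 ± 0.16 (adjusted p = 0.0192). Edem3, which trims mannose from misfolded glycoproteins, rose by 0.76 ± 0.13 (adjusted p = 0.0184; 7.98 to 9.18 TPM against 4.19 to 4.88 TPM), and Sec24d, a cargo adaptor of the vesicles that leave the ER, by 0.91 ± 0.18 (adjusted p = 0.0343; 37.6 to 56.9 TPM against 21.1 to 27.4 TPM). The CORT libraries of all of them lay above all Veh libraries. Slc6a9, the glycine transporter GLYT1 and an ATF4 target, measured 62.2, 58.6 and 38.2 TPM against 9.11, 14.6 and 14.3 TPM and rose by 1.98 ± 0.25 (adjusted p = 0.00774). Sesn2, which restrains mTORC1, rose by 0.77 ± 0.13 (adjusted p = 0.0224; 4.06 to 4.53 TPM against 2.00 to 2.27 TPM).

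Fgf21, a hormone of the fasted liver, measured 26.7, 50.3 and 6.58 TPM in CORT and 0.62, 3.49 and 0.34 TPM in Veh and rose by 3.37 ± 0.74 (adjusted p = 0.0434). Ddit4 (REDD1), an inhibitor of mTORC1 that is also a known target of the glucocorticoid receptor, measured 85.9, 31.4 and 136 TPM in CORT and 3.68, 4.42 and 20.3 TPM in Veh and rose by 3.16 ± 0.71 (adjusted p = 0.0448). The groups of both were apart but widely spread, and without any 1 library the change ran from 2.76 to 4.14 for Fgf21, lowest without CORT2 and highest without CORT3, and from 2.71 to 3.86 for Ddit4, lowest without CORT3 and highest without Veh3. With a pseudocount of 0.1 Fgf21 rose by 4.32. Of the 10 calls, Pdia5 and Slc6a9 held without any 1 library. Without CORT1 they were the only 2 genes of the lists called, with adjusted p of 0.0520 to 0.145 for the other 8. Fkbp11 was also lost without Veh1 (0.0561) and Veh3 (0.0528), and each of the other 7 was lost without at least 4 of the 6 libraries.

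**Figure D5:**
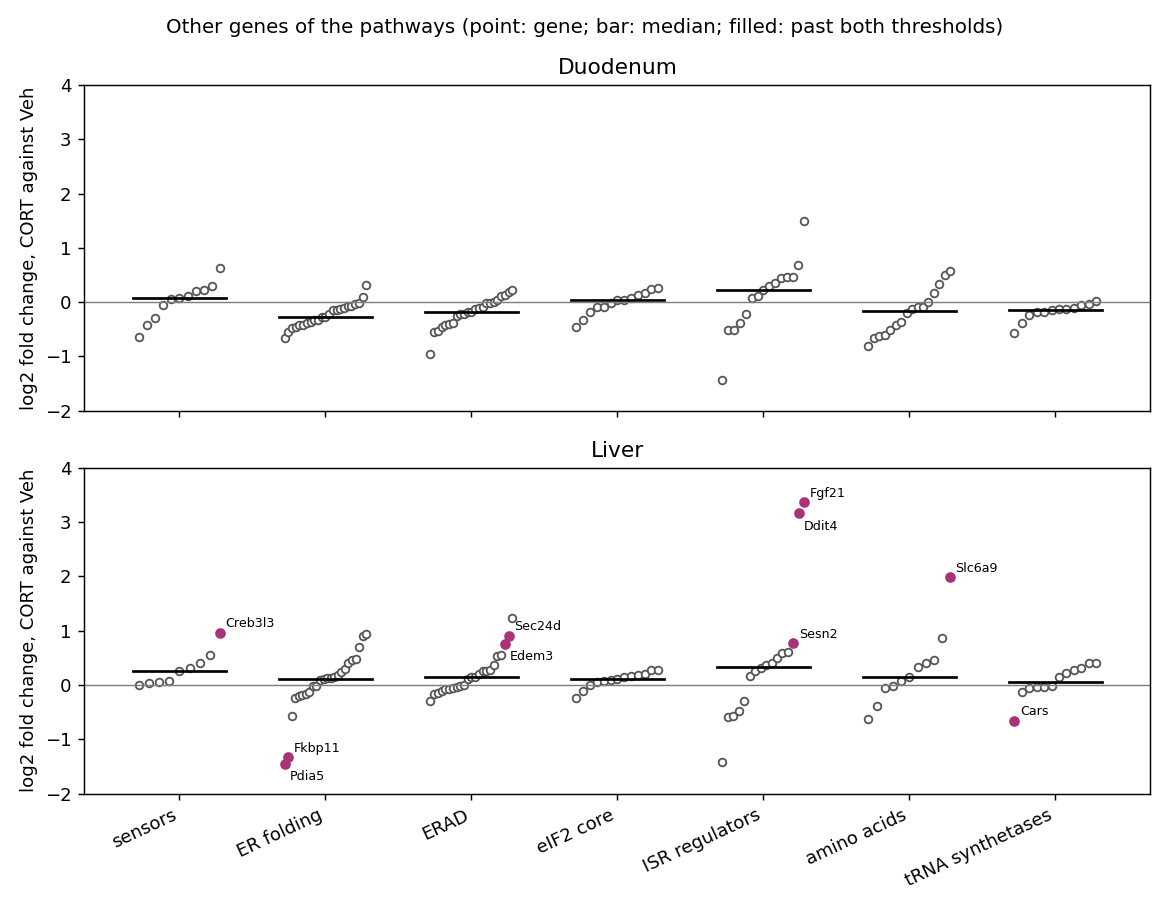
Log2 fold change of TPM + 1, CORT against Veh, of the tested genes of the 7 pathway lists in the duodenum (top) and the liver (bottom). Points are genes, ordered by value within a list, bars are list medians, and filled points passed both thresholds, which 0 genes did in the duodenum and 10, named beside their points, in the liver.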

How the data were processed

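Total RNA of duodenum and liver was sequenced from paired-end libraries. The authors used HISAT2 for alignment, StringTie for assembly and RSEM for quantification (submitters' processing notes, GRCm39), and deposited TPM per gene and library. No reads were counted here, and depth is not given in the sources used here.

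Groups and replicate numbers came from the sample labels. TPM values were transformed to log2(TPM + 1), genes averaging 1 TPM or more in a group were retained, and the tissues were fitted separately by limma 3.58.1 (R 4.3.3, eBayes with trend), tested on simulated data first. Promoters were searched with Python 3.11.15, and the 2 sources of coordinates were RefSeq GRCm38.p6 and GENCODE vM21, another build than that of the reads. BLAST+ 2.17.0 found no copies of the members, at 95% identity or more over at least 150 bases, among other transcripts.

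The members and lists were chosen with earlier results of these data known. Named were all members, the sensors and eIF2 kinases, and Fkbp5. Up to 4 called genes per list and tissue with the smallest adjusted p, and the 3 genes most like each arm, were also named. Manf, Wars, Derl3, Nupr1, Ppib, Creb3, Tars, Ighm and the called plasma cell markers were named after their values were seen. Alternatives were a pseudocount of 0.1, no filter, a replicate block, each library left out, median-ratio scaling, no fold limit, unadjusted p, 3 treatments of acinar RNA and, added after seeing the data, the liver without Veh2 and CORT3. The design had foreseen a count model, which TPM do not allow. Set tests were not run.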

Additional observations from a re-analysis of the deposited data

Results flagged for a closer look

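The following changes passed, apart from the last gene named, the test of a difference between the tissues, given as the change in the duodenum minus the change in the liver on the log2 scale, in the limma fit of all 12 libraries. For Pdia5 the difference was 1.30 (adjusted p = 0.0212), from -0.15 in the duodenum and -1.45 in the liver. For Slc6a9 it was -1.64 (adjusted p = 0.0208), from 0.34 and 1.98. For Creb3, a relative of ATF6, it was -0.83 (adjusted p = 0.0497). All its CORT libraries lay below all Veh libraries in the duodenum (31.8 to 35.8 TPM against 41.1 to 53.2 TPM). In the liver they lay above them (23.1 to 30.8 TPM against 17.6 to 21.4 TPM). Within a tissue, limma did not call Creb3 (adjusted p = 0.163 in the duodenum and 0.164 in the liver). For Fgf21 and the short Ddit3 model the values were -4.01 (adjusted p = 0.0455) and -2.26 (adjusted p = 0.00127). Both passed the low-value filter of this fit only through the liver, so they are no comparison of tissues. The value of the short Ddit3 model restates its liver change. That of Fgf21 is larger in size than its liver change of 3.37, because low duodenum values enter it too. Fgf21 was listed at 0 in 4 of 6 duodenum libraries and at 2.12 and 0.20 TPM in Veh2 and Veh3, the libraries with acinar RNA, and the short Ddit3 model at 0 in all 6. Lastly, Tars, the threonine tRNA synthetase, differed in opposite directions with no overlap in either tissue. CORT against Veh, it measured 16.8 to 21.1 TPM against 22.3 to 23.9 TPM in the duodenum. In the liver it measured 36.4 to 42.3 TPM against 26.5 to 30.9 TPM. The test of the difference, -0.65, did not pass (adjusted p = 0.0594). Within a tissue, limma did not call Tars (adjusted p = 0.351 in the duodenum and 0.101 in the liver). Groups of 3 libraries were not examined for single outlying values.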

How the results depend on the processing

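In the duodenum 0 members were called under every alternative run. Of the pathway lists there, 9 genes passed on unadjusted p with the fold limit, and 0 to 1 without any 1 library. In the liver the 2 members became 1 without the low-value filter, with the replicate block, and without Veh2 and CORT3 together, and 1 to 2 without any 1 library. The short Ddit3 model was called in all of these. With median-ratio scaling the count stayed at 2, but Herpud1 was lost and Xbp1, lower in CORT, was called (limma adjusted p = 0.0352). Herpud1 was called in 1 of the 6 fits without 1 library, the one without Veh3. The 10 liver pathway calls became 3 without the filter and 16 on unadjusted p, and 2 to 11 without any 1 library, with 2 without CORT1, 5 without CORT2 and 3 without Veh1 or Veh3. The test between tissues passed 1 member row in all fits, the short Ddit3 model, which repeats its liver change because the duodenum is listed at 0. Whether the replicate numbers pair the samples cannot be settled here, as 3 libraries a group leave few deviations to compare. The deviations of same-numbered CORT and Veh libraries correlated at 0.054, 0.073 and -0.0039 in the duodenum and at 0.038, -0.0084 and -0.12 in the liver. Those of differently numbered libraries ran from -0.083 to 0.036 in the duodenum and from -0.14 to 0.13 in the liver. The replicate block moved the liver pathway calls from 10 to 7 and took Herpud1 to an adjusted p of 0.0896. Signs turned for uncalled members: Atf4 of the liver was -0.036 after median-ratio scaling and Pdia4 of the liver 0.078 without Veh2 and CORT3 together. Without any 1 library, the duodenum changes of Asns, Dnajb9 and Trib3 ran from -0.045 to 0.38, from -0.027 to 0.43 and from -0.27 to 0.041. Those of the liver ran from -0.37 to 1.28 for Asns, -0.034 to 0.15 for Atf4, -0.22 to 0.14 for Pdia4 and -0.55 to 0.22 for Sdf2l1. The differences between tissues ran from -1.10 to 0.54 for Asns, -0.14 to 0.44 for Ddit3, -0.43 to 0.059 for Dnajb9, -0.32 to 0.049 for Pdia4 and -0.70 to 0.067 for Sdf2l1. Precision rests on 3 libraries a group, since TPM hold no depth.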
